A study of Bos taurus with 12 samples.

Results

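The genes described here encode the proteins of the cytosolic ribosome, followed through 9 days of adipogenic differentiation of bovine intramuscular preadipocytes. They were taken by name from the mRNA expression table: every row with a gene name of RPL or RPS and a digit, or RPLP0, RPLP1, RPLP2 or RPSA, without the S6 kinases, and with a mean of at least 1 FPKM over the 12 libraries. FPKM is a level of sequenced fragments scaled for transcript length and library depth. Of 33714 rows, 87 matched by name and 83 reached the limit, and all 83 also passed the filter for testing, a mean of at least 0.1 FPKM, with 15402 rows in all.

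The study cultured intramuscular preadipocytes of newborn Qinchuan cattle, taken from the longissimus dorsi. It induced them near confluence with dexamethasone, IBMX (an inhibitor of cyclic nucleotide breakdown) and insulin. From 48 hours on it kept them in insulin without the other agents. The groups are 0 d, before induction, and 3 d, 6 d and 9 d, with 3 libraries each. All groups share a growth medium with serum, and the 12 libraries hold no uninduced culture of 3, 6 or 9 d, so time in culture and induction cannot be told apart. The study's methods call the replicates biological, but the number of animals behind them is not given in the sources used here, so the p-values measure the spread between these libraries.

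Cytosolic ribosomes hold a small subunit, which reads the mRNA, and a large subunit, which joins the amino acids, and nearly every protein is present in a single copy per ribosome. The mRNAs of these proteins are among the most abundant of growing cells and start with a pyrimidine tract through which mTOR signalling and LARP1 control their translation, so that their protein output can change while the mRNA level does not. Insulin is a known activator of that signalling.

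On the FPKM scale as deposited the family's median stayed near 0 d, while rescaling by median ratio, described below, placed it higher. The median log2 difference of the 83 members from 0 d on days 3, 6 and 9 was 0.018, 0.00073 and 0.057, and that of all 15402 mRNAs tested was -0.064, -0.15 and -0.19. At 3 d 58 of 83 members (69.9%) lay within 0.25 log2 units of 0 d, against 27.1% of all mRNAs. At 6 d the share was 95.2% of members against 39.6%, and at 9 d 86.7% against 37.4%. These shares depended on the scale: after median-ratio rescaling they were 69.9% of members against 26.5% of all mRNAs at 3 d, 75.9% against 40.8% at 6 d, and 45.8% against 41.5% at 9 d, where little of the contrast was left. With each library scaled to the same summed FPKM (the TPM scale) they were 69.9% against 27.1%, 95.2% against 40.7% and 91.6% against 35.8%. The 3 comparisons share the 0 d libraries. In bulk libraries a change in the mix of cells and a change of RNA per cell cannot be told apart.

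Abundant mRNAs were compared in the same way. Among the 6040 mRNAs with a mean of at least 10 FPKM, 29.7%, 43.8% and 40.9% lay within 0.25 log2 units of 0 d on days 3, 6 and 9. The 71 members above that level gave 70.4%, 94.4% and 85.9%. After median-ratio rescaling the members gave 70.4%, 73.2% and 45.1%, and the abundant mRNAs 29.5%, 44.9% and 45.8%. On the TPM scale the members gave 70.4%, 94.4% and 91.5%, and the abundant mRNAs 29.6%, 43.8% and 37.7%. The median SE of a member's log2 change was 0.0814, against 0.167 for all mRNAs and 0.108 for the abundant ones, so the members also varied less between libraries of a day than most.

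**Figure D1:**
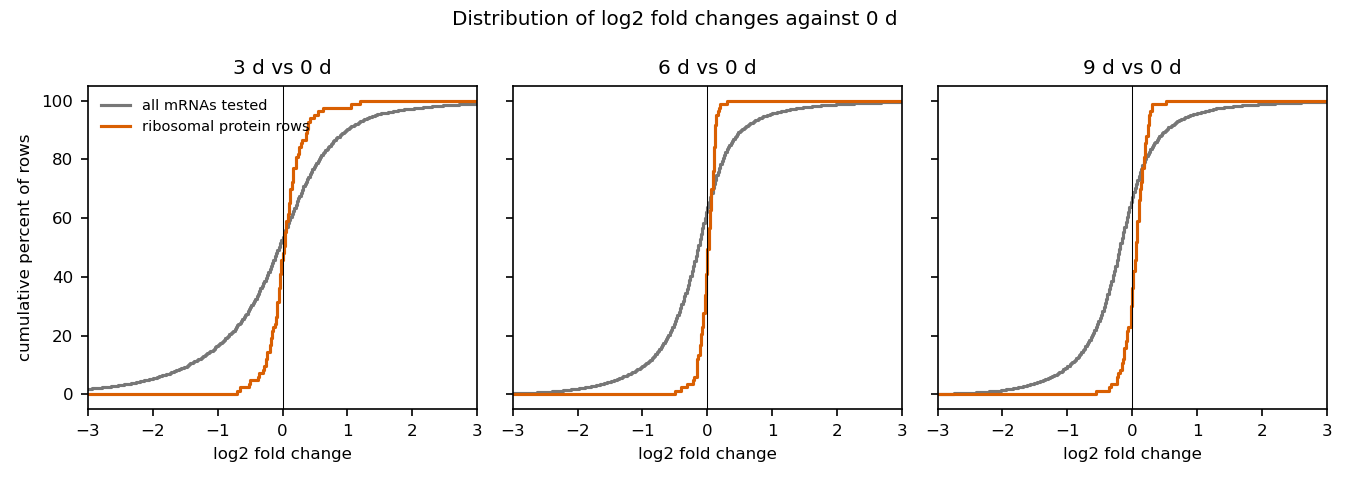
Cumulative percent of rows (vertical axis) by log2 fold change against 0 d (horizontal axis, FPKM as deposited, log2 of FPKM + 0.1) at 3, 6 and 9 d, for the 83 ribosomal protein rows (orange) and all 15402 mRNAs tested (grey; values beyond 3 in either direction are not drawn). The orange curves are steeper, with 69.9%, 95.2% and 86.7% of members within 0.25 of 0 d on this scale.

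The size of the family's shift changed with the scaling of the libraries, while its median against 0 d lay above 0 on all 3 scales used. Rescaling the libraries by their median ratio, which sets the typical mRNA to no change, shifted the median of all mRNAs against 0 d by 0.074, 0.16 and 0.19 on days 3, 6 and 9, and placed the median member at log2 0.098, 0.17 and 0.26. Scaling each library to the same summed FPKM (the TPM scale) gave 0.087, 0.0031 and 0.0073. From 3 d to 6 d the median of the members was 0.0069 as deposited, 0.097 after median-ratio rescaling and -0.061 on the TPM scale, so there the sign depended on the scale. As deposited, the median at 3 d fell below 0 without 0 d replicate 1 (-0.010), 0 d replicate 2 (-0.029) or 3 d replicate 2 (-0.012), and the median at 6 d without 0 d replicate 1 (-0.021), 0 d replicate 2 (-0.024) or 6 d replicate 3 (-0.012). Values below are FPKM as deposited unless another scale is named, and each call given for a member was repeated on both other scales and without each library in turn.

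The family also moved together between libraries of the same day. 0 d replicate 3 held the highest value of its day for 75 of the 83 members, and 3 d replicate 2 for 59. The median member stood at log2 -0.074, -0.099 and 0.098 from its 12-library mean in 0 d replicates 1, 2 and 3. At 3 d these medians were -0.061, 0.064 and -0.016, at 6 d -0.059, -0.0013 and 0.022, and at 9 d 0.026, -0.00015 and 0.082. The libraries of 0 d thus differed from each other by more than the median member differed between 0 d and any later day. The median pair of members had a Pearson correlation of 0.226 across the 12 libraries, against 0.0372 for the 6040 mRNAs of at least 10 FPKM; the libraries are shared by all of these pairs.

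**Figure D2:**
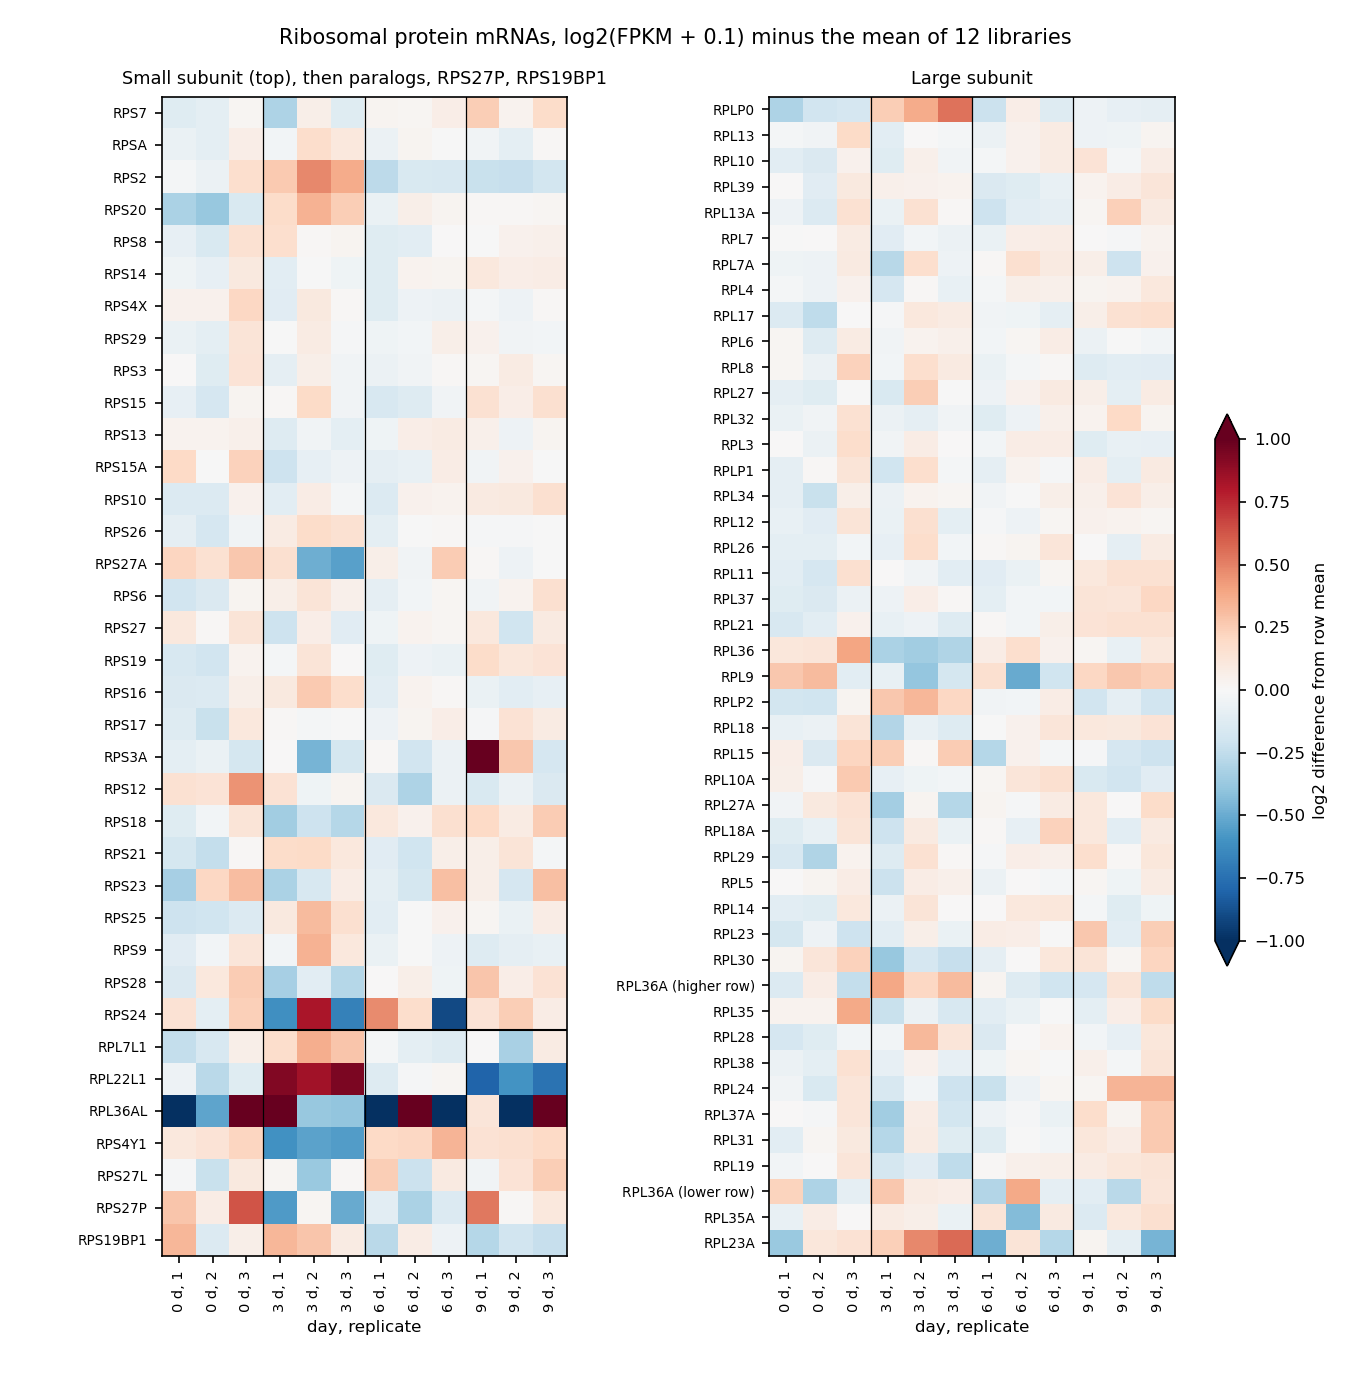
Each cell is log2(FPKM + 0.1) of a member in a library minus that member's mean over the 12 libraries (colour scale from -1 to 1, values beyond it drawn at the ends); columns are day and replicate, and the 81 rows drawn are sorted by mean FPKM within their class. Most members are near white, 0 d replicate 3 is warmer than the other 0 d libraries in 75 of 83 members, and RPL22L1, RPS4Y1 and RPL36 stand out at 3 d.

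Of the 83 members 31 are small subunit rows, 45 are large subunit rows for 44 genes, 5 are paralogs and 2 are other names that match the rule. RPL36A has 2 rows. The other names are RPS27P, a pseudogene of RPS27 by its name and its RefSeq entry, and RPS19BP1, which binds RPS19 and is not itself a ribosomal protein. All 31 small subunit genes on the list were members. RPL41 was not analysed here.

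The levels spanned 1.75 to 10445 FPKM, with a median of 55.4 and quartiles of 19.9 and 286, although the proteins are built into the ribosome in nearly equal numbers. There were 12 members under 10 FPKM, 41 from 10 to under 100 and 30 at 100 or more. Processed copies of these genes are common in mammalian genomes, and reads shared between copies can be split or lost in counting, so levels of single members are uncertain; their part in the spread was not tested.

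The acidic stalk of the large subunit recruits elongation factors, and RPLP0 is its base. RPLP0, the most abundant member, read 8304, 9002 and 9178 FPKM at 0 d, 12209, 13331 and 14966 at 3 d, 8838, 10752 and 9404 at 6 d, then 9935, 9733 and 9685 at 9 d. All 3 libraries at 3 d lay above every library of the other days. It rose from 0 d to 3 d (log2 0.61, SE 0.0857, adjusted p = 1.74e-04) and fell from 3 d to 6 d (log2 -0.48, adjusted p = 0.00101), and both calls held under both other scalings and without each library in turn. RefSeq places RPLP0 on chromosome 17 from 62557773 to 62561795 of assembly ARS-UCD2.0. RPLP1 and RPLP2, the dimer partners that RPLP0 holds, are far lower in the table. RPLP2 read 35.4, 34.9 and 40.9 FPKM at 0 d, 48.5, 50.6 and 46.3 at 3 d, 39.3, 39.4 and 42.3 at 6 d, then 35.2, 37.6 and 35.2 at 9 d, with 3 d above every other library (log2 0.39, SE 0.073, adjusted p = 0.00123). RPLP1 was at 109.9, 118 and 128 FPKM at 0 d and 102, 131 and 116 at 3 d, with overlapping libraries (log2 -0.03, adjusted p = 0.796).

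RPS7, RPL13 and RPSA were also among the 5 most abundant members. RPS7 read 1107, 1129 and 1222 FPKM at 0 d, 972, 1255 and 1108 at 3 d, 1228, 1222 and 1259 at 6 d, then 1430.0, 1234 and 1366 at 9 d, overlapping between 0 d and 3 d, with the 9 d libraries all above those of 0 d. RPL13 held 1012, 1002 and 1172 FPKM at 0 d, 954, 1029 and 1013 at 3 d, 985, 1059.8 and 1086 at 6 d, then 995, 998 and 1049 at 9 d, with overlap between all days. RPSA, also known as the laminin receptor, read 795, 776 and 871 FPKM at 0 d, 816, 937 and 897 at 3 d, 798, 846 and 829 at 6 d, then 812, 778 and 837 at 9 d, and again the days overlapped. RPS7, RPL13 and RPSA passed no test against 0 d, and at 9 d their adjusted p was 0.0831, 0.514 and 0.945.

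RPLP0 was the largest single part of the family's sum. The 83 members summed to 25698, 26073 and 28779.9 FPKM at 0 d, 30555, 34029 and 34399 at 3 d, 26195, 29051 and 27907 at 6 d, then 28611, 27942 and 28782 at 9 d. The 3 d libraries were the highest 3 of the 12. The mean sum at 3 d was 1.23 times that at 0 d, 32994.5 ± 2121 against 26850.4 ± 1681 (SD, n = 3). RPLP0 accounted for 76.1% of that rise. Without it the sums were 17394, 17072 and 19602 at 0 d and 18346, 20698 and 19433 at 3 d, which overlap, and the ratio was 1.08. RPLP0 alone held 36.0% of the members' FPKM over the 12 libraries, and the 10 most abundant members 71.1%.

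**Figure D3:**
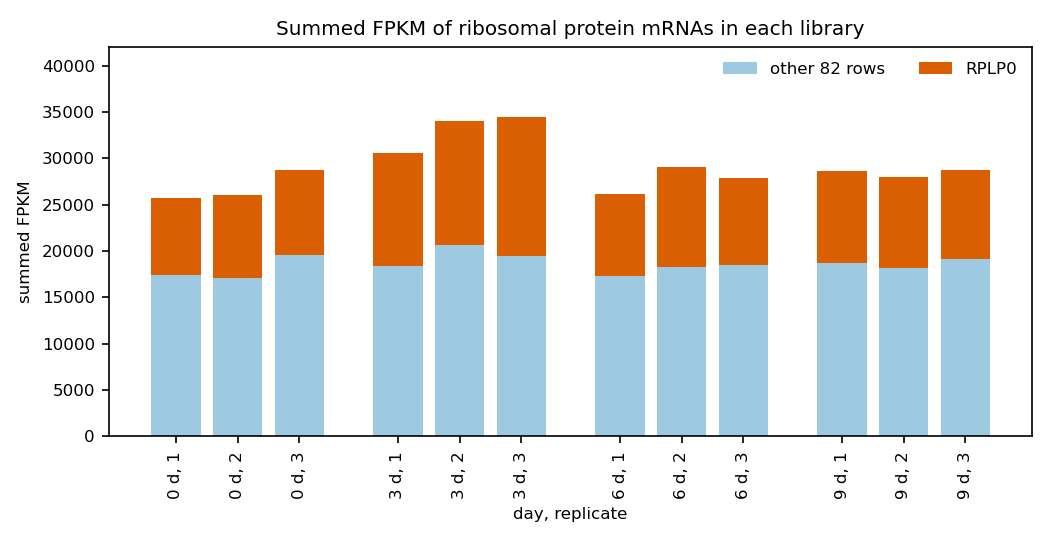
Stacked bars give the summed FPKM of the 83 members in each library, split into RPLP0 and the other 82 rows. The 3 d bars are tallest (30555 to 34399), while the part without RPLP0 overlaps between 0 d (17072 to 19602) and 3 d (18346 to 20698).

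As a share of all mRNA FPKM the members made up 1.958%, 2.007% and 2.181% in the 0 d libraries, 2.502%, 2.680% and 2.743% in those of 3 d, 2.027%, 2.2% and 2.127% in those of 6 d and 2.086%, 2.107% and 2.099% in those of 9 d. The 3 d shares were again above all others. Without RPLP0 the shares were 1.325%, 1.314% and 1.486% at 0 d against 1.502%, 1.63% and 1.549% at 3 d, so that they did not overlap although the sums did.

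At 3 d against 0 d, 14 members were higher (background 21.7% of mRNAs tested) and 11 lower (background 30.5%) at limma adjusted p under 0.05. That is 30.1% of members in both directions together, against 52.2% of all mRNAs. With an absolute log2 change over 1 required as well, the 2-fold rule below, 1 member of 83 passed against 23.3% of all mRNAs. The small subunit gave 8 higher and 4 lower of 31, and the large subunit 4 higher and 5 lower of 45. The split between directions moved with scaling: 20 higher and 5 lower after median-ratio rescaling, and 22 and 5 on the TPM scale. In both directions together these are 30.1% of members against 52% of all mRNAs, and 32.5% against 53%. The split also moved with single libraries. Without 0 d replicate 3, whose values were mostly the highest of its day, 16 were higher and 4 lower, without 0 d replicate 1 the split was 9 and 9, without 3 d replicate 1 it was 15 and 5, and without 3 d replicate 3 it was 12 and 5. Of the 25 calls, 11 held under both other scalings and without each library in turn, and 14 were lost in at least 1 of these settings. Among the 11 were RPLP0, RPS2, RPS20, RPL22L1, RPS26, RPLP2 and RPS25, which rose, and RPL36, RPL30 and RPS4Y1, which fell.

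Among the small subunit genes that rose at 3 d, RPS20 read 442, 423 and 496 FPKM at 0 d, 624, 698 and 653 at 3 d, 525, 571 and 561 at 6 d, then 555, 553 and 556 at 9 d. Every library of the induced days was above every library of 0 d (log2 0.54, SE 0.0659, adjusted p = 6.37e-05), and the gene was still higher at 6 d (log2 0.29, adjusted p = 0.00698) and 9 d (log2 0.29, adjusted p = 0.00604). These 3 calls held on all 3 scales and without each library. RPS2, placed where the mRNA enters the ribosome, read 633, 615 and 719.6 FPKM at 0 d, 769, 894 and 829 at 3 d, 535, 575 and 572 at 6 d, then 549.8, 546 and 566 at 9 d. It was highest at 3 d (log2 0.34, SE 0.0717, adjusted p = 0.00246) and below all 0 d libraries at 6 d (log2 -0.22, adjusted p = 0.0355) and 9 d (log2 -0.24, adjusted p = 0.0243). The RPS2 call at 6 d was lost after median-ratio rescaling (-0.053), and without 0 d replicate 1 (-0.25), 0 d replicate 3 (-0.15), 3 d replicate 3 (-0.22), 6 d replicate 1 (-0.19) or 6 d replicate 2, 6 d replicate 3 (each -0.24). Its call at 9 d was lost after median-ratio rescaling (-0.032), and without 0 d replicate 3 (-0.17), 9 d replicate 1 (-0.24) or 9 d replicate 2 (-0.23).

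Other small subunit genes that rose at 3 d did so by less. RPS25 read 17.2, 17.3 and 18.01 FPKM at 0 d and 21.2, 24.8 and 22.1 at 3 d, without overlap (log2 0.37, adjusted p = 0.00183). RPS26 went from 74.04, 70.4 and 77.1 to 83.6, 89.5 and 87.9, also without overlap (log2 0.24, adjusted p = 0.00409). RPS21 went from 19.04, 18.2 and 21.6 to 24.5, 24.6 and 23.1 (log2 0.30, adjusted p = 0.017), a call that was lost without 0 d replicate 1 (0.28) or 0 d replicate 2 (0.24). RPS16 read 44.1, 44.2 and 50.8 at 0 d and 52.1, 58.6 and 55.1 at 3 d (log2 0.25), and its call was lost without 0 d replicate 1 (0.22) or 3 d replicate 2 (0.21). These genes, and those in the paragraphs on falls beyond RPL36 and RPL30, were picked for the text after their values were seen.

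RPS6, RPL5, RPL11, RPS3 and RPL3 are given as examples of members that passed no test in any of the 5 comparisons on the deposited scale. RPS6, the protein that S6 kinases phosphorylate after insulin, read 53.1, 54.8 and 61.7 FPKM at 0 d and 63.2, 66.3 and 62.95 at 3 d, without overlap but short of the threshold (log2 0.18, adjusted p = 0.056). RPL5 and RPL11, which bind MDM2 with the 5S rRNA when ribosome assembly is disturbed, were at means of 21.1, 20.2, 20.2 and 20.8 FPKM for RPL5 on days 0, 3, 6 and 9 and 84.1, 83.3, 82.95 and 94.7 for RPL11. RPS3, at the mRNA entry, had means of 291, 285, 284 and 297, and RPL3, near the catalytic centre, of 147, 143, 146 and 133. These 5 were picked from the members without a call after their values were seen, so they do not stand for members of any role.

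On the deposited scale 49 of the 83 members passed no test in the 5 comparisons, 16 of the small subunit, 30 of the large subunit, 2 paralogs and RPS19BP1. That is 59.0% of members, against 28.9% of all mRNAs tested, and 57.7% against 22.7% among those with a mean of at least 10 FPKM. After median-ratio rescaling the contrast was gone, with 25 members (30.1%) against 31.0% of all mRNAs, and 25.4% against 24.4% of the abundant ones, while the TPM scale gave 54.2% against 27.2%. The mean levels of the 49 ran from 1.75 to 1211 FPKM. The 30 large subunit rows among the 49 differed from 0 d by log2 -0.37 to 0.24 at 3 d, by -0.34 to 0.19 at 6 d and by -0.18 to 0.28 at 9 d. The 16 small subunit rows differed by -0.25 to 0.18 at 3 d, by -0.18 to 0.10 at 6 d and by -0.12 to 0.51 at 9 d. A p above the threshold does not show that a level was the same.

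Small subunit genes that fell at 3 d were RPS27A, RPS18, RPS28 and RPS15A, and each of these calls was lost in some setting. RPS27A, made as a fusion with ubiquitin, read 80.98, 77.6 and 84.1 FPKM at 0 d, 77.9, 49.5 and 47.7 at 3 d, 72.5, 68.1 and 82.8 at 6 d, then 70.2, 67.05 and 69.4 at 9 d. In 3 d replicate 1 it was at the level of 0 d and in the other 2 libraries below it, so the groups overlapped although the test passed (log2 -0.51, SE 0.162, adjusted p = 0.0236). The RPS27A call was lost on the TPM scale (-0.44), and without 0 d replicate 1 (-0.51), 0 d replicate 3 (-0.48), 3 d replicate 2 (-0.41) or 3 d replicate 3 (-0.38). RPS18, near the decoding site, read 26.5, 28.2 and 31.5 FPKM at 0 d, 22.6, 24.9 and 23.7 at 3 d, 31.04, 29.7 and 32.2 at 6 d, then 33.1, 30.6 and 34.4 at 9 d, with 3 d below 0 d in all 3 libraries (log2 -0.27, SE 0.0785, adjusted p = 0.0145), a call that was lost after median-ratio rescaling (-0.19), and without 0 d replicate 3 (-0.20) or 3 d replicate 1 (-0.24). From 3 d to 6 d RPS18 rose without overlap (log2 0.38, adjusted p = 0.00241), and this call held on all 3 scales and without each library. RPS28 read 8.72, 10.4 and 11.5 at 0 d and 7.63, 8.94 and 7.89 at 3 d (log2 -0.31), with overlap, and its call was lost after median-ratio rescaling (-0.23) and on the TPM scale (-0.24), and without 0 d replicate 2 (-0.30), 0 d replicate 3 (-0.22), 3 d replicate 1 (-0.27) or 3 d replicate 3 (-0.29). RPS15A read 130.0, 113 and 133 at 0 d and 98.3, 107 and 109.5 at 3 d, without overlap (log2 -0.25), and its call was lost after median-ratio rescaling (-0.17) and on the TPM scale (-0.18), and without 0 d replicate 1 (-0.23) or 0 d replicate 3, 3 d replicate 1 (each -0.21).

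Large subunit genes that fell at 3 d were led by RPL36 and RPL30. RPL36 read 53.8, 53.9 and 65.5 FPKM at 0 d, 39.8, 38.9 and 40.2 at 3 d, 52.4, 55.7 and 51.2 at 6 d, then 50.4, 47.1 and 53.5 at 9 d. The 3 d libraries lay below all 9 others (log2 -0.53, SE 0.0833, adjusted p = 3.54e-04), and the gene rose from 3 d to 6 d (log2 0.42, adjusted p = 0.00199), with both calls held on all 3 scales and without each library. RPL30 read 19.3, 20.7 and 22.3 FPKM at 0 d, 14.6, 16.9 and 16.2 at 3 d, 17.8, 18.98 and 20.5 at 6 d, then 20.8, 19.2 and 22.1 at 9 d, lowest at 3 d without overlap with any other day (log2 -0.38, SE 0.0884, adjusted p = 0.00427). Its rise from 3 d to 6 d (log2 0.26, adjusted p = 0.0308) was lost on the TPM scale (0.20), and without 3 d replicate 1 (0.21), 3 d replicate 3 (0.28), 6 d replicate 2 (0.27) or 6 d replicate 3 (0.21).

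Another 3 large subunit genes were lower at 3 d by smaller steps. RPL35, at the exit of the peptide tunnel, read 18.4, 18.5 and 23.5 FPKM at 0 d and 15.4, 17.3 and 16.1 at 3 d, without overlap (log2 -0.30, adjusted p = 0.0406). The RPL35 call was lost after median-ratio rescaling (-0.22) and on the TPM scale (-0.23), and without 0 d replicate 3 (-0.18), 3 d replicate 1 (-0.26), 3 d replicate 3 (-0.29) or 6 d replicate 1, 6 d replicate 2, 6 d replicate 3, 9 d replicate 2 (each -0.30). RPL27A read 23.3, 25.5 and 26.4 at 0 d and 18.8, 24.4 and 19.6 at 3 d, with overlap (log2 -0.27), and its call was lost after median-ratio rescaling (-0.19) and on the TPM scale (-0.20), and without 0 d replicate 2 (-0.25), 0 d replicate 3 (-0.23), 3 d replicate 1 (-0.20), 3 d replicate 3 (-0.23) or 6 d replicate 1, 6 d replicate 2, 6 d replicate 3, 9 d replicate 1, 9 d replicate 2, 9 d replicate 3 (each -0.27). RPL19 read 8.48, 8.66 and 9.43 at 0 d and 7.66, 8.0 and 7.26 at 3 d, without overlap (log2 -0.21), and its call was lost after median-ratio rescaling (-0.13) and on the TPM scale (-0.14), and without 0 d replicate 3 (-0.16) or 3 d replicate 3 (-0.17).

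The higher of the 2 RPL36A rows read 17.1, 19.8 and 15.9 FPKM at 0 d, 24.7, 21.8 and 23.5 at 3 d, 19.2, 17.2 and 16.4 at 6 d, then 16.8, 20.6 and 15.8 at 9 d. It was above all other days at 3 d (log2 0.41, SE 0.118, adjusted p = 0.0153), a call that was lost without 0 d replicate 3 (0.34) or 3 d replicate 1 (0.36). The lower row read 5.71, 3.91 and 4.56 at 0 d and 5.89, 5.17 and 5.11 at 3 d, which overlap (adjusted p = 0.411). The table does not tell what separates the 2 rows.

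**Figure D4:**
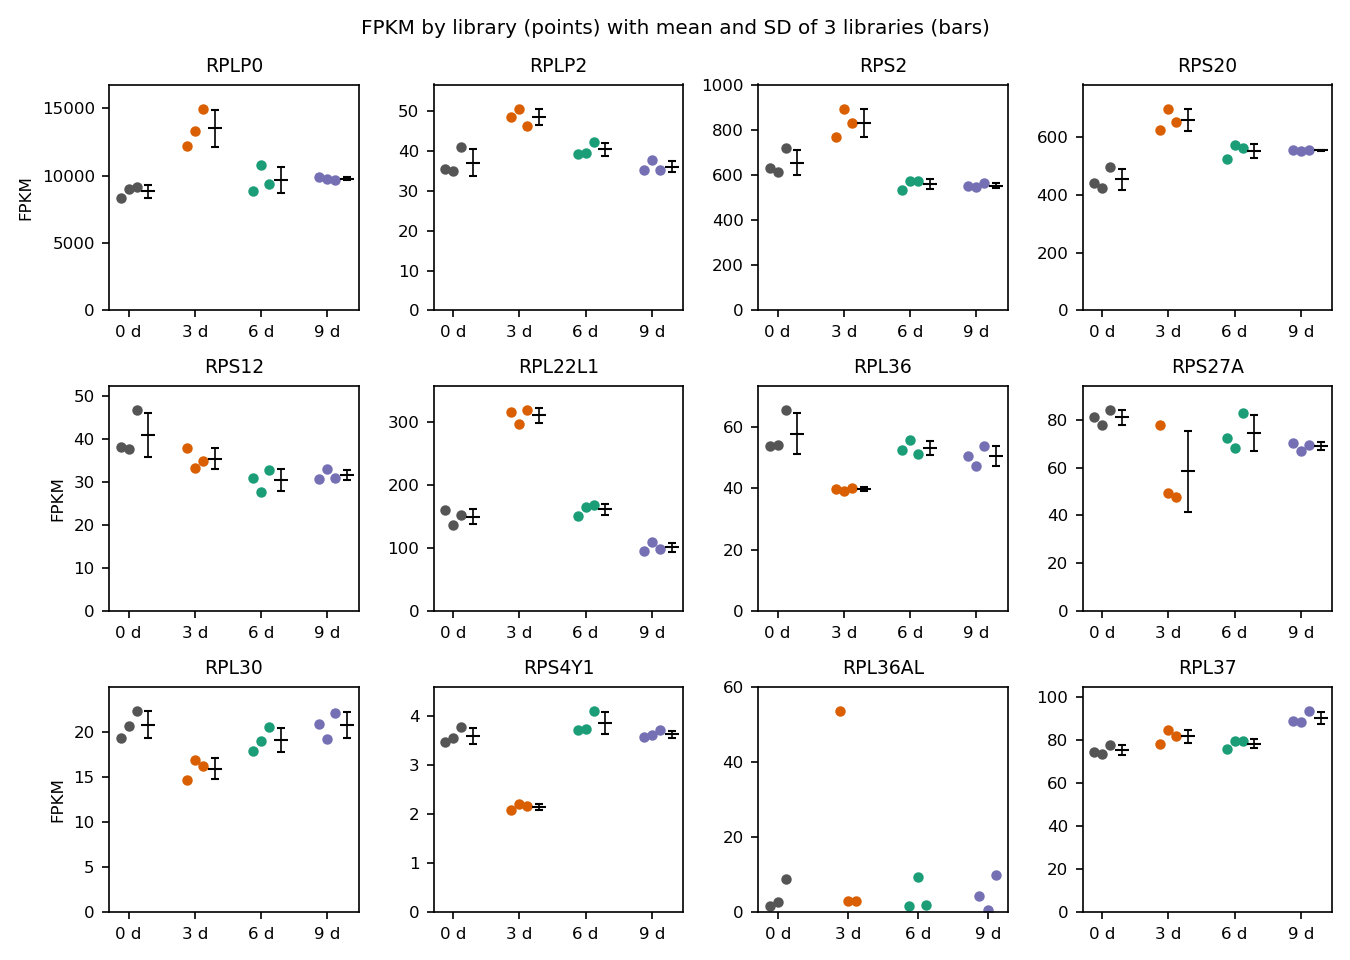
FPKM in each library (points, by day) with the mean and SD of 3 libraries (black) for 12 members; RPL36AL is drawn without mean and SD because 1 library sets them. RPLP0, RPLP2, RPS2, RPS20 and RPL22L1 peak at 3 d, RPL36, RPL30 and RPS4Y1 are lowest there, and RPL37 is highest at 9 d.

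The paralogs are genes named as relatives of a ribosomal protein gene, called the parent here. Whether their products take the parent protein's place in the ribosome was not tested. At 3 d 1 of 5 lay within 0.25 log2 units of 0 d, against 64.5% of small subunit and 80.0% of large subunit rows, and at 6 d all 5 did, with 93.5% and 97.8%. RPL22L1, the paralog of RPL22, read 160.4, 137 and 152 FPKM at 0 d, 314, 297 and 319 at 3 d, 151, 165 and 168 at 6 d, then 95.2, 109.6 and 99.1 at 9 d. Every 3 d library was above all others, and RPL22L1 was the member past the 2-fold rule (log2 1.05, SE 0.076, adjusted p = 1.32e-06). It was below 0 d at 9 d without overlap (log2 -0.56, SE 0.076, adjusted p = 2.78e-04). From 3 d to 6 d it fell by 0.94 on the log2 scale (adjusted p = 3.99e-06) and from 6 d to 9 d by 0.67 (adjusted p = 1.99e-04). RPL22 itself was under the limit of 1 at 0.69, 0.6 and 0.63 FPKM at 0 d, 0.72, 0.5 and 0.47 at 3 d, 0.62, 0.62 and 0.67 at 6 d, then 0.51, 0.5 and 0.56 at 9 d. On days 0, 3, 6 and 9 the mean FPKM of RPL22L1 was 234, 550.2, 253 and 194 times that of RPL22. The 4 calls of RPL22L1 held on all 3 scales and without each library.

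RPL7L1 read 186, 196 and 228 FPKM at 0 d, 247, 282 and 266 at 3 d, 216, 204 and 201 at 6 d, then 220.2, 175 and 232 at 9 d, with all 3 d libraries above all others (log2 0.39, SE 0.112, adjusted p = 0.0148). The RPL7L1 call was lost without 0 d replicate 1 (0.32) or 3 d replicate 2 (0.34). Its parent RPL7 read 657, 660.2 and 695 at 0 d and 608, 646 and 632 at 3 d, where the test did not pass (adjusted p = 0.143). On days 0, 3, 6 and 9 the ratio of the means, RPL7L1 over RPL7, was 0.303, 0.421, 0.3096 and 0.316.

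RPS4Y1 and RPS4X code for forms of the same small subunit protein. RPS4Y1 read 3.47, 3.55 and 3.77 FPKM at 0 d, 2.08, 2.2 and 2.16 at 3 d, 3.72, 3.74 and 4.11 at 6 d, then 3.57, 3.61 and 3.71 at 9 d, and its 3 d libraries were the lowest 3 (log2 -0.72, SE 0.072, adjusted p = 1.50e-05). From 3 d to 6 d it rose (log2 0.82, SE 0.072, adjusted p = 7.86e-06), and both calls held on all 3 scales and without each library. Despite its name RefSeq places RPS4Y1 on chromosome 23, from 10550055 to 10565856 of ARS-UCD2.0, and RPS4X on chromosome X. RPS4X read 382, 384 and 428 FPKM at 0 d, 344, 398 and 374 at 3 d, 342, 358 and 356 at 6 d, then 367, 359 and 374 at 9 d, far above the paralog, with overlap between 0 d and 3 d (adjusted p = 0.229).

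RPS27L read 2.07, 1.78 and 2.24 FPKM at 0 d, 2.12, 1.59 and 2.11 at 3 d, 2.49, 1.79 and 2.23 at 6 d, then 2.03, 2.31 and 2.5 at 9 d, with no separation between days. RPS27 read 60.5, 56.8 and 61.7 FPKM at 0 d, 48.9, 58.9 and 52.1 at 3 d, 54.6, 57.7 and 57.2 at 6 d, then 60.5, 49.2 and 60.0 at 9 d and likewise passed no test. The pseudogene row RPS27P, at 40.05, 34.8 and 50.9 FPKM at 0 d, 22.2, 33.4 and 23.2 at 3 d, 30.6, 26.5 and 29.9 at 6 d, then 47.7, 33.2 and 35.5 at 9 d, was below 0 d at 3 d (log2 -0.68, SE 0.197, adjusted p = 0.0148). The RPS27P call was lost without 0 d replicate 3 (-0.53), 3 d replicate 1 (-0.57) or 3 d replicate 3 (-0.60). Pseudogenes and their parents share sequence, and how reads were divided between RPS27P and RPS27 was not tested.

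RPL36AL rested on single libraries. It read 1.69, 2.83 and 8.96 FPKM at 0 d, 53.7, 3.14 and 3.11 at 3 d, 1.74, 9.39 and 1.87 at 6 d, then 4.5, 0.65 and 9.97 at 9 d. The 3 d mean of 19.98 rested on replicate 1, and the other 2 libraries of that day lay inside the 0 d range. The change was log2 1.19 with an SE of 1.31 and an adjusted p of 0.482. RPS3A and RPS24 were also uneven: RPS3A read 97.2, 54.5 and 40.2 FPKM at 9 d and RPS24 1.05, 3.0 and 1.0 at 3 d, and neither passed a test. RPS3A was chosen for this after its values were seen.

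At 6 d against 0 d, 1 member was higher (RPS20, background 10.0%) and 2 lower (background 24.8%). By the 2-fold rule 0 passed in limma (background 11.4%), and 0 also at unadjusted p under 0.05. The lower ones were RPS2 and RPS12. RPS12, of the small subunit, read 38.2, 37.7 and 46.9 FPKM at 0 d, 38.04, 33.3 and 35.0 at 3 d, 30.98, 27.8 and 32.9 at 6 d, then 30.9, 33.01 and 31.01 at 9 d. Its 6 d and 9 d libraries were all below those of 0 d (6 d log2 -0.42, SE 0.0988, adjusted p = 0.0083; 9 d log2 -0.36, adjusted p = 0.0158). The RPS12 call at 6 d was lost after median-ratio rescaling (-0.25). Its call at 9 d was lost after median-ratio rescaling (-0.16), and without 9 d replicate 1 (-0.35). Median-ratio rescaling gave 23 higher members and 0 lower at 6 d, which is 27.7% of members against 32.1% of all mRNAs. The TPM scale gave 1 and 3, which is 4.82% against 35.1%. Single libraries moved the small counts on the deposited scale. Without 0 d replicate 2 the split was 1 higher and 5 lower, without 3 d replicate 2 it was 1 and 4, without 0 d replicate 3 it was 2 and 1, and without 0 d replicate 1, 3 d replicate 3, 6 d replicate 2 or 6 d replicate 3 it was 1 and 1.

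At 9 d against 0 d, 5 members were higher (background 9.69%) and 4 lower (background 27.2%), and by the 2-fold rule 0 passed in limma (background 10.9%), and 0 also at unadjusted p under 0.05. The higher ones were RPS20, RPL37, RPL17, RPS19 and RPL21. RPL37 read 74.5, 73.4 and 77.8 FPKM at 0 d, 78.4, 84.8 and 81.8 at 3 d, 75.8, 79.4 and 79.7 at 6 d, then 88.6, 88.4 and 93.6 at 9 d, with 9 d above all other days (log2 0.26, SE 0.0514, adjusted p = 0.00284). RPL17, at the wall of the exit tunnel, read 435, 400.4 and 479.8 at 0 d and 497, 532 and 538 at 9 d, without overlap (log2 0.25, SE 0.067, adjusted p = 0.0135). RPS19, the gene most often mutated in Diamond-Blackfan anaemia, read 49.4, 48.5 and 56.5 at 0 d and 62.9, 59.8 and 60.9 at 9 d (log2 0.25, SE 0.069, adjusted p = 0.0161). The RPS19 call was lost without 0 d replicate 1 (0.23), 0 d replicate 2 (0.21) or 9 d replicate 1 (0.23). RPL21 went from 47.4, 49.2 and 54.7 to 58.2, 59.1 and 59.01 (log2 0.22, adjusted p = 0.015), a call that was lost without 0 d replicate 1 (0.18). The calls of RPS20, RPL37 and RPL17 held on all 3 scales and without each library, but that of RPL17 was lost in a fit of the 6 libraries of 0 d and 9 d alone (0.25). RPL17 had also passed at 3 d, with overlap (log2 0.18, adjusted p = 0.0426), a call that was lost without 0 d replicate 1 (0.18), 0 d replicate 2 (0.12), 3 d replicate 2 (0.16), 3 d replicate 3 (0.17) or 6 d replicate 1, 6 d replicate 2, 6 d replicate 3, 9 d replicate 2, 9 d replicate 3 (each 0.18).

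The lower members at 9 d were RPL22L1, RPS12, RPL10A and RPS2. RPL10A read 26.7, 25.4 and 30.8 FPKM at 0 d, 24.3, 24.9 and 25.2 at 3 d, 25.98, 27.9 and 28.7 at 6 d, then 23.02, 22.5 and 23.7 at 9 d, and its 9 d libraries were below those of every other day (log2 -0.26, SE 0.0758, adjusted p = 0.0236). The RPL10A call was lost after median-ratio rescaling (-0.049), and without 0 d replicate 3 (-0.18), 9 d replicate 1 (-0.26) or 9 d replicate 2 (-0.24). The counts for 9 d also moved with scaling: 42 members were higher and 1 lower after median-ratio rescaling, 51.8% of members against 31.2% of all mRNAs. On the TPM scale 5 were higher and 8 lower, which is 15.7% of members against 39.9% of all mRNAs. Without 0 d replicate 3 there were 14 higher and 2 lower, without 0 d replicate 1 3 and 4, without 3 d replicate 2 9 and 4, without 9 d replicate 1 5 and 1, and without 9 d replicate 2 7 and 2.

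Both 3 d and 6 d lie after the withdrawal, at 48 hours, of the inducers other than insulin. From 3 d to 6 d, 6 members rose (background 22.4%) and 14 fell (background 27.1%), and by the 2-fold rule 0 passed in limma (background 19.1%), and 0 also at unadjusted p under 0.05. The calls that held on all 3 scales and without each library were the falls of RPL22L1, RPLP0 and RPS2 and the rises of RPS4Y1, RPL36 and RPS18, and the other 14 were lost in at least 1 of these settings. The falls of RPS20 (log2 -0.25) and RPLP2 (log2 -0.26) were lost after median-ratio rescaling (-0.16 and -0.17) and held without each library. These comparisons share the 3 d libraries with those of 3 d against 0 d. RPL23A, at the tunnel exit, read 1.75, 2.49 and 2.55 FPKM at 0 d, 2.73, 3.25 and 3.44 at 3 d, 1.61, 2.52 and 1.87 at 6 d, then 2.34, 2.14 and 1.64 at 9 d in a row joined with 3 other names, and fell after 3 d (log2 -0.64, SE 0.204, adjusted p = 0.0246). The RPL23A call was lost after median-ratio rescaling (-0.56), and without 3 d replicate 2 (-0.61), 3 d replicate 3 (-0.58), 6 d replicate 1 (-0.51) or 6 d replicate 3 (-0.61). Median-ratio rescaling gave 15 rises and 3 falls, which is 21.7% of members against 47.9% of all mRNAs. The TPM scale gave 3 and 27, which is 36.1% against 51.4%, so the prevailing direction changed with the scaling. Without 3 d replicate 3 there were 3 rises and 7 falls, without 6 d replicate 2 3 and 9, without 6 d replicate 3 3 and 10, without 3 d replicate 2 9 and 7, and without 6 d replicate 1 8 and 8.

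From 6 d to 9 d, 4 members rose (background 10.0%) and 2 fell (background 10.7%), and by the 2-fold rule 0 passed in limma (background 4.43%), and 0 also at unadjusted p under 0.05. The split was 4 and 1 after median-ratio rescaling, which is 6.02% of members against 19.8% of all mRNAs. On the TPM scale it was 1 and 3, which is 4.82% against 23%. The 7.23% of members that passed on the deposited scale compares with 20.7% of all mRNAs. Of the 6 calls the fall of RPL22L1 held on all 3 scales and without each library. RPS15, near the decoding site, read 168, 171 and 182 at 6 d and 208, 196 and 209 at 9 d, without overlap (log2 0.23, adjusted p = 0.0496). The RPS15 call was lost on the TPM scale (0.18), and without 0 d replicate 1, 3 d replicate 1, 3 d replicate 3 (each 0.23), 6 d replicate 1 (0.21), 6 d replicate 2 (0.23), 6 d replicate 3 (0.27), 9 d replicate 1 (0.22), 9 d replicate 2 (0.26) or 9 d replicate 3 (0.22). RPL39, which lines the exit tunnel, read 695, 705 and 727 at 6 d and 786, 809 and 833 at 9 d (log2 0.19, adjusted p = 0.032), a call that was lost on the TPM scale (0.14), and without 6 d replicate 1 (0.18), 6 d replicate 2 (0.19), 6 d replicate 3 (0.21), 9 d replicate 2 (0.19) or 9 d replicate 3 (0.17). The rise of RPS19 (log2 0.23) was lost on the TPM scale (0.17), and without 0 d replicate 1, 3 d replicate 3 (each 0.23), 6 d replicate 1 (0.20), 6 d replicate 2 (0.24), 6 d replicate 3 (0.23), 9 d replicate 1 (0.21), 9 d replicate 2 (0.24) or 9 d replicate 3 (0.23). The rise of RPL37 (log2 0.20) was lost without 6 d replicate 1, 9 d replicate 3 (each 0.18). The fall of RPL10A (log2 -0.25) was lost after median-ratio rescaling (-0.21), and without 0 d replicate 1, 3 d replicate 1, 3 d replicate 2, 3 d replicate 3 (each -0.25), 6 d replicate 2 (-0.24), 6 d replicate 3 (-0.22), 9 d replicate 1 (-0.25), 9 d replicate 2 (-0.24) or 9 d replicate 3 (-0.27). Without 0 d replicate 3 there were 7 rises and 2 falls, without 0 d replicate 1 or 3 d replicate 3 2 and 1, and without 6 d replicate 1 1 and 2. Without any 1 of 6 d replicate 2, 6 d replicate 3, 9 d replicate 2 or 9 d replicate 3 there were 1 and 1. Without 3 d replicate 1 or 9 d replicate 1 there were 3 and 1, and without 3 d replicate 2 4 and 1.

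The limit of 1 FPKM separated a few low rows. Just inside were RPS24 with a mean of 1.75, RPS27L with 2.105 and RPL23A with 2.36. Just outside were RPL22 with 0.591, RPL26L1 with 0.332 and RPL3L with 0.00583. RPL10L was listed at 0 in all 12 libraries. RPS24 is an ordinary member of every small subunit, and its row read under 4 FPKM in every library. RPS19BP1 read 2.71, 2.99, 2.39 and 2.13 FPKM on average and passed no test.

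Many ribosomal protein genes carry small nucleolar RNA genes, guides for rRNA modification, in their introns. In the RefSeq annotation of assembly ARS-UCD2.0, 27 of the 81 members' genes that matched a coding gene (33.3%) held at least 1 such gene inside their bounds, with 57 in all, against 1.16% of 21585 other coding genes. In 11 rows the ribosomal protein gene was joined with other names, and 17 of those 19 names were small nucleolar RNA genes. The values of joined rows may include their fragments. The 27 host rows had a median of 142 FPKM and the other 56 rows of 48.6, and their median changes at 3 d were log2 0.018 and 0.016.

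Circular RNAs gave another view of the same loci. Of 14070 circular RNAs in the count table, 21 were assigned to 13 of the members as hosts, with 80 back-spliced reads in all 12 libraries together out of 95674. Of the 21, 4 named RPLP0 as host. Hosts were taken by gene name, without regard to strand. For RPLP0, circRNA5827 and circRNA3375 were listed on the minus strand, and circRNA12680 and circRNA9336 on the plus strand. These 4 therefore cannot all come from the RPLP0 transcript. The most read of the 4, circRNA5827 (chromosome 17, 62557903 to 62558612, minus strand, ARS-UCD1.2), had 6, 4 and 0 reads at 3 d, 2, 3 and 0 at 9 d and 0 in the other 6 libraries. Library totals ran from 5358 to 10729 reads, and a count of 0 allows up to 3 reads. No difference between days was tested on these counts. circRNA3327 of RPL18 (chromosome 18, 55261544 to 55262237, minus strand) had the most reads, 17 in 6 libraries. Back-spliced reads of members summed to 17, 22, 15 and 26 at 0, 3, 6 and 9 d, and the limit of 3 covers counting error only.

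Some ribosomal proteins are made from genes whose names the rule does not reach. FAU, which codes for RPS30 in a fusion, read 26.9, 23.1 and 30.6 FPKM at 0 d, 30.6, 32.6 and 31.04 at 3 d, 28.2, 27.4 and 29.6 at 6 d, then 30.0, 32.3 and 32.4 at 9 d, and its change at 3 d did not pass (log2 0.23, adjusted p = 0.06). RACK1, the scaffold on the head of the small subunit, read 2879.5, 2696 and 3137 FPKM at 0 d, 3244, 3440.3 and 3433 at 3 d, 2639, 2861 and 2837 at 6 d, then 2839.9, 2960.2 and 2829.9 at 9 d in a row joined with TRIM52. RACK1 was above 0 d at 3 d (log2 0.22, SE 0.0589, adjusted p = 0.0105).

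Counts for lists of other genes can be read beside the shares of all mRNAs tested, 21.7% higher and 30.5% lower on day 3, 10.0% and 24.8% on day 6, and 9.69% and 27.2% on day 9. No list was tested as a set. The translation factors and other mRNAs that share the pyrimidine tract gave 1 higher (6.25%) and 4 lower (25%) of 16 on day 3, 0 and 4 on day 6, and 1 and 6 (37.5%) on day 9. Of 50 ribosome assembly genes 18 were higher (36.0%) and 4 lower (8.0%) on day 3, 7 (14.0%) and 8 (16.0%) on day 6, and 0 and 15 (30.0%) on day 9. The median log2 change on day 9 was -0.16 for the assembly genes and -0.10 for the pyrimidine tract list. Both are smaller in size than the 0.19 by which median-ratio rescaling moved the median of all mRNAs. The direction of these lists on day 9 therefore depends on the scale. RRP1B, a nucleolar protein, was the assembly gene past the 2-fold rule at 3 d, with 3.3, 3.19 and 3.14 FPKM at 0 d, 6.42, 6.31 and 7.41 at 3 d, 6.13, 6.26 and 3.64 at 6 d, then 3.77, 3.86 and 3.22 at 9 d (log2 1.04, SE 0.184, adjusted p = 8.50e-04). The RNA polymerase I list gave 4 higher (26.7%) and 1 lower (6.67%) of 15 at 3 d, with none past the 2-fold rule. Mitochondrial ribosomal proteins, the other ribosome of the cell, gave 9 higher (11.5%) and 18 lower (23.1%) of 78 at 3 d. Among them MRPS30 read 3.25, 2.46 and 3.78 FPKM at 0 d and 13.5, 13.6 and 14.1 at 3 d (log2 2.103, adjusted p = 6.74e-07). MRPL54, MRPL27 and MRPL48 fell (log2 -1.73, -1.48 and -1.22).

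In the mTOR and translation control list 6 of 25 were higher (24.0%) and 7 lower (28.0%) at 3 d, near the 21.7% and 30.5% of all mRNAs. DDIT4, an inhibitor of mTOR that glucocorticoids induce, read 109, 109 and 123 FPKM at 0 d, 1042, 1066 and 1097 at 3 d, 681, 756 and 690.0 at 6 d, then 706, 642 and 758 at 9 d (log2 3.24, SE 0.0737, adjusted p = 3.69e-10). MYC, which drives ribosome production, read 0.99, 1.33 and 0.83 at 0 d and 4.84, 2.7 and 2.58 at 3 d (log2 1.56, adjusted p = 0.00121). LARP1 read 383, 389 and 379.6 at 0 d and 135, 118 and 278 at 3 d. EEF2K, a brake on elongation, MLST8, a subunit of mTOR complexes, and LARP1 fell (log2 -1.79, -1.32 and -1.22, adjusted p = 0.0111, 6.74e-06 and 0.048). Of 10 genes with names starting in RPS6K, 1 was higher (10.0%) and 4 lower (40.0%) at 3 d: RPS6KA1 rose (log2 1.35), and RPS6KL1, RPS6KA4 and RPS6KA2 fell by over 1 log2 unit (log2 -1.49, -1.31 and -1.04). This list goes by name and does not single out the S6 kinases that mTOR drives.

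Calls and counts of genes outside the family are given on the deposited scale only and were not repeated without single libraries.

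The labelled cell type was checked against its markers. Of 8 adipocyte markers 6 were higher and 1 lower on day 3, 4 and 1 on day 6, then 5 and 1 on day 9. FABP4 was at 3.36, 3.02 and 3.52 FPKM at 0 d and 94.7, 86.2 and 92.3 at 3 d, while ADIPOQ was at most 1.64 and CEBPA at most 0.26. LEP went the other way at 3 d and then rose, with 2.17, 2.39 and 2.47 FPKM at 0 d, 0, 0.21 and 0 at 3 d, 9.97, 8.6 and 5.5 at 6 d, then 25.3, 16.6 and 19.6 at 9 d (3 d log2 -4.06, adjusted p = 1.49e-05). The lower marker was LPL at 6 d (log2 -0.57) and PPARG at 9 d (log2 -0.53). The 8 adipocyte markers, of which FABP4 was the most abundant at 3 d, summed to 53.9, 61.6 and 62.0 FPKM at 0 d, 177, 177 and 183 at 3 d, 90.8, 97.55 and 102.7 at 6 d, then 92.5, 76.4 and 90.4 at 9 d.

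Skeletal muscle markers were present and highest at 0 d: 6 of 7 had a row, and they summed to 692, 729 and 808 FPKM at 0 d, 266, 292 and 290.0 at 3 d, 378, 367 and 410.4 at 6 d, then 297, 269 and 295 at 9 d. Of the 6, 5 were lower on day 3, and all 6 on days 6 and 9. From 3 d to 6 d DES rose (log2 1.19) and the other 5 fell, so the higher sum at 6 d was that of DES. DES was the most abundant of them and MYOD1 next, and PAX7 was not analysed here. The proliferation list of 6 summed to 282, 235 and 276 at 0 d, 314, 320.4 and 354 at 3 d, 182, 215 and 213 at 6 d, then 155, 195 and 185 at 9 d, led by BIRC5. Of its 6 genes 2 passed at 3 d, both higher, 1 at 6 d and 3 at 9 d, all lower.

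PTPRC and HBB were listed at 0 in all libraries, and CD14 was the most abundant blood marker at no more than 2.66. Of 4 endothelial markers VWF was highest at no more than 2.58. Among 6 preadipocyte and fibroblast markers COL3A1 was the most abundant (105843, 126606, 96303 and 170827 FPKM on average at 0, 3, 6 and 9 d). At 3 d 5 of the 6 were higher, PDGFRA among them (log2 2.54), and COL1A1 was lower, with 2949.6, 3146 and 2957 FPKM at 0 d and 877, 987 and 958 at 3 d (log2 -1.68, adjusted p = 6.49e-09). At 3 d, when RPLP0 and RPL22L1 were above 0 d, the summed muscle markers were below 0 d and the summed proliferation markers above it, both without overlap. At 9 d, when RPL22L1 was below 0 d and RPLP0 passed no test against it, both sums were below 0 d without overlap. At 6 d both sums were below 0 d as well, and neither RPLP0 nor RPL22L1 passed a test against 0 d. The median log2 change of the 6 proliferation genes at 6 d was 0.016, so their lower sum was not shared by the list as a whole. The part of the muscle and proliferation markers in the members' differences was not tested. Single markers were picked for these paragraphs after their values were seen.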

How the data were processed

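Per the labels, total RNA of 12 samples was sequenced as paired ends. The deposited mRNA values are FPKM made by the authors, whose processing notes list Bowtie, HISAT2 and StringTie. The labels describe poly(A) selection and the study's methods removal of rRNA, and the mouse build in the labels differs from the bovine ARS-UCD1.2 of the methods. The deposited circular RNA values are counts of back-spliced reads by the authors. The depth behind an FPKM value, rounded to 2 decimals, is unknown. Log2(FPKM + 0.1) of 15402 rows was fitted with limma 3.58.1 in R 4.3.3 (trend, 1 mean per day, 12 libraries), and p-values were adjusted by Benjamini-Hochberg over all rows in each of 5 comparisons. Fold changes are on that scale, which understates low genes. Calls of members were repeated under other scalings, pseudocounts and filters, and without each library. Figures were drawn in Matplotlib 3.10.9. Members and lists were chosen with earlier results of these data known. Named members and other genes are, beside those the text calls picked later, members past an absolute log2 change of 1, the 4 largest rises and falls per comparison with adjusted p under 0.05 and no overlap, the 5 most abundant, paralogs with parents, rows beside the limit, and in each list the 3 largest rises and falls past that change at 3 d. Some genes that these rules reach are not reported here. Long noncoding RNA, microRNA and scaled circular RNA columns were not used here.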

Additional observations from a re-analysis of the deposited data

How the results depend on the processing

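Counts are members with limma adjusted p under 0.05, and medians are of the members' log2 fold changes, in the order of 3 d, 6 d and 9 d each against 0 d, then 6 d against 3 d and 9 d against 6 d; the counts as reported were 25, 3, 9, 20 and 6. Rescaling by median ratio gave counts of 25, 23, 43, 18 and 5 and medians of 0.098, 0.17, 0.26, 0.097 and 0.091. The TPM scale gave 27, 4, 13, 30 and 4, with medians of 0.087, 0.0031, 0.0073, -0.061 and 0.00032. A fit of the 6 libraries compared, with fewer samples, gave 16, 2, 6, 13 and 6, and no filter on low values 22, 2, 9, 17 and 2. Pseudocounts of 0.01 and 1, a filter at 1 FPKM, single-name rows and members of at least 10 FPKM moved no count by over 1.5 times. Nor did the 2 subunit lists alone (21, 3, 8, 17 and 5), an alternative chosen after seeing the data, as was the sum without RPLP0, for which the ratio of 3 d to 0 d was 1.08 against 1.23 with it. On the TPM scale the ratio was 1.29 with RPLP0 and 1.13 without it.

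Leaving out each library in turn gave counts of 17 to 24, 2 to 6, 6 to 16, 10 to 21 and 2 to 9, and medians of -0.029 to 0.077, -0.024 to 0.070, 0.027 to 0.12, -0.032 to 0.028 and 0.030 to 0.071. Of 660 values of named members under the alternatives, 574 passed as before, 86 no longer passed and 0 changed sign. Of the members' calls at 3 d against 0 d, 11 of 25 held under both other scalings and without each library in turn. Members that passed none of the 5 tests were 49 as reported, 25 after median-ratio rescaling and 45 on the TPM scale. This count and the shares within 0.25 log2 units of 0 d were repeated on the other scales after the data had been seen. The cause of the changes with scaling was not tested.

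Libraries with the same replicate number had correlations of their deviations from day means of -0.0757 to 0.0947 (18 pairs), and those with different numbers of -0.161 to 0.14 (36 pairs). The reported fit, set before this check, paired no libraries. With the replicate block the counts were 24, 3, 10, 19 and 4.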
